A study of Homo sapiens with 6 samples.

Results

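The genes described here are 38 genes of cholesterol and fatty acid synthesis and of the sterol-sensing machinery that controls them, listed by name and matched by Ensembl identifier to a table of read counts for 62754 genes. All 38 were found, and all 38 passed the filter on low counts that left 20992 genes for testing. The list holds 5 regulators of the SREBP transcription factors, 9 enzymes from acetyl-CoA units to squalene epoxide, 9 enzymes from there to cholesterol, 5 proteins of sterol transport and efflux and 10 enzymes of fatty acid synthesis, elongation and desaturation. Poly(A) RNA of human embryonic kidney cells was sequenced in 6 libraries, 3 from control cells and 3 from cells in which FAM60A (also named SINHCAF), which belongs to the Sin3/HDAC corepressor that removes acetyl groups from histones, had been targeted with CRISPR/Cas9. The sample titles name the line HEK293, and the cell line field names HEK293T, the derivative that carries the SV40 large T antigen. Guides to 3 regions of FAM60A were delivered with Cas9 and the recipients were selected as a pool with puromycin, so the knockout was not a single clone and may have held different alleles. All cells grew in the same medium with fetal bovine serum, which supplies lipoprotein cholesterol. What the control cells had received, and whether replicates were separate cultures, is not given in the sources used here, and p-values therefore measure the spread between these libraries, which may be technical. The comparison asked how RNA levels differed when FAM60A was disrupted.

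Cells make cholesterol from acetyl-CoA through mevalonate, isoprenoid units, squalene and lanosterol. SREBP-2, the product of SREBF2, switches on the genes of this route, and SREBP-1, the product of SREBF1, acts more on the genes of fatty acid synthesis. Both are made as membrane proteins of the endoplasmic reticulum, where SCAP escorts them to the Golgi for cleavage when sterols are low and INSIG proteins hold SCAP back when sterols are high. Their activity is therefore set largely by cleavage, which RNA levels do not show. LXR nuclear receptors, activated by oxysterols, switch on sterol efflux genes such as ABCA1 and ABCG1, and also SREBF1.

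FAM60A itself had 113, 106 and 132 CPM (read counts scaled to library size with TMM factors) in controls 1, 2 and 3 and 67.5, 66.0 and 61.7 in the knockout libraries, a log2 fold change of -0.85 ± 0.11 (SE) with an adjusted p of 0.00863 by edgeR's quasi-likelihood test, and of -0.78 ± 0.07 without control 3. Its RNA was thus lower in all 3 knockout libraries but far from 0. The paper reports the knockout as established in HEK293 cells by immunoblot and qRT-PCR, and RNA reads alone do not show the protein. Library totals ran from 88361827 to 93346824 counts, so depth differed little. Control 3 stood apart from controls 1 and 2: 1574 to 1611 of 21031 genes differed at least 4-fold between it and each of them, against 9 genes between controls 1 and 2, 11 to 13 between knockout libraries and 668 to 739 between control 3 and each knockout library. Its label gives no reason, so results are given with and without it. All 8 genes taken to mark HEK293 cells, among them VIM and KRT8, were present in every library. Their log2 fold changes were all below 0, from -1.88 to -0.20 with a median of -0.70. Of the 8, 2 passed (NEFM and INA), 25% beside 16.6% of all genes tested. Without control 3, 6 of 8 passed, all lower (median -0.84), 75% beside 65.6% of all genes in that fit. Of 9 markers of other cell types that were matched, ALB, PTPRC, CD3E and ADIPOQ had 0 to 9 counts in every library. APOA1, COL1A1, COL3A1, PLIN1 and GFAP passed the filter on low counts, so some RNA of these was present. COL1A1, a fibroblast collagen, had 1145 to 2526 counts and was lower in the knockout (log2 fold change -0.66, edgeR adjusted p = 0.0361). Of the 5 markers of other cell types that were tested it was the 1 that passed (20%, beside 16.6% of all genes). Without control 3, 1 passed higher and 1 lower (40%, beside 65.6% of all genes). The part of these marker differences in the results below was not tested. In bulk RNA, fewer cells of a type and less RNA per cell cannot be told apart.

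SREBPs bind promoters beside NF-Y, which recognises CCAAT, and Sp1, which recognises GC boxes, so the promoter windows of the members are shown before their levels. RefSeq windows of 250 bases before to 50 after a transcription start (GRCh38.p14) covered 33 of the 38 genes, and a gene counted as holding a motif if any of its windows did, on either strand. CCAAT occurred in 24 of 33 members (72.7%) against 39.7% of 27305 genes, and the GC box GGGCGG in 31 (93.9%) against 48.3%. The E-box CACGTG occurred in 5 (15.2%) against 8.77%. A sterol regulatory element written as TCACNCCAC occurred only in SREBF2 among the 33 (3.03% against 1.39%), and the LXR direct repeat only in ABCA1 (3.03% against 0.300%). These are matches of letters, not sites shown to be bound. The 27305 genes were all those with a window, whether or not their RNA was present here, while all members passed the filter on low counts. Neither expression nor base composition was matched, so the shares do not show that the members differ from other expressed genes. CCAAT was present in 3 of the 4 members with a window that rose in the knockout (IDI1, SC5D and DHCR7, not CYP51A1), in 4 of 4 that fell and in 17 of 25 that did not pass the test, so the box was found on both sides. The 250 bases upstream of the start follow for 3 sterol enzyme genes that rose, for NSDHL, which fell, and for SREBF2 itself. Capitals mark CCAAT, its reverse complement ATTGG and, in SREBF2, the sterol regulatory element. In IDI1 and NSDHL one CCAAT overlaps an ATTGG, giving a single run of capitals. Where a gene had several windows, the one with most matches is shown, 5′ to 3′ on the strand of the gene.
DHCR7 (chr11:71448394-71448643, minus strand): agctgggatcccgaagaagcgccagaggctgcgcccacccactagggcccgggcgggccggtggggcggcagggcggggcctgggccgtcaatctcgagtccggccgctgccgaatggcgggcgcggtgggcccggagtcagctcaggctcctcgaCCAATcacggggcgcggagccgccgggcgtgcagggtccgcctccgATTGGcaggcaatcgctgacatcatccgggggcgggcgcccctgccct
IDI1 (chr10:1048887-1049136, minus strand): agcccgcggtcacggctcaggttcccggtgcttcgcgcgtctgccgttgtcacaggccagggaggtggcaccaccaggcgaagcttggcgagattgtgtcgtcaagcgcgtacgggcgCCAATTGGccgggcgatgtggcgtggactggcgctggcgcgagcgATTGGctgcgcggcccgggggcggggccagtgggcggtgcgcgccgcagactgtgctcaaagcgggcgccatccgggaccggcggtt
SC5D (chr11:121292521-121292770, plus strand): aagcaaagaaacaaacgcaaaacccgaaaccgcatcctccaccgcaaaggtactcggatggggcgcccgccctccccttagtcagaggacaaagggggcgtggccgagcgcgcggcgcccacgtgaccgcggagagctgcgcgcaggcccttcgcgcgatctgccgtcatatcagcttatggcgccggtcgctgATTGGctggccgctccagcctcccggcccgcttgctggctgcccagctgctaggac
NSDHL (chrX:152830813-152831062, plus strand): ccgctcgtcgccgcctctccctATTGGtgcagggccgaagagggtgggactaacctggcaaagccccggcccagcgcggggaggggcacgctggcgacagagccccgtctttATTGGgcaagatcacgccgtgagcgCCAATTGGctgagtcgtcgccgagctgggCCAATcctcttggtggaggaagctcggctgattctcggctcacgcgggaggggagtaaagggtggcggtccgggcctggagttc
SREBF2 (chr22:41832855-41833104, plus strand): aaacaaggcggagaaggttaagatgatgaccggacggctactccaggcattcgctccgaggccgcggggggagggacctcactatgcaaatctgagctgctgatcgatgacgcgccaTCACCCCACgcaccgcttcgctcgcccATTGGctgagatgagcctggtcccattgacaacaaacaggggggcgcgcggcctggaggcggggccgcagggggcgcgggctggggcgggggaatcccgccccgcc

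Levels of different genes were compared per length, as counts per kilobase of exon, scaled to the same sum in each library (TPM). In the control libraries fatty acid genes stood highest: ACLY, which makes cytosolic acetyl-CoA from citrate, at 363 ± 11.8 TPM (SD, n = 3), FASN, the fatty acid synthase, at 305 ± 32.4, and SCD, the desaturase that makes oleate, at 281 ± 118. SCD differed from the other two by less than its own spread, which came from control 3. ACAT2 (209.97 ± 119.7 TPM) and INSIG1 (176 ± 44.9) came next, each with a wide spread. The sterol enzymes FDPS, FDFT1, HMGCS1, SQLE and IDI1 lay below them and close together, between 118 and 129 TPM, differing by less than the spread between libraries. At the other end were CYP51A1 (8.07 ± 0.954 TPM), the mitochondrial carboxylase ACACB (2.72 ± 0.203), ABCG1, NPC1L1 and ABCA1. The level of CYP51A1 is uncertain, because reads that also fit overlapping genes or a pseudogene could have been dropped or assigned elsewhere. ABCA1 was the single member at or below 1 CPM in every library, with 12 to 22 counts. SREBF2 (75.3 ± 8.14 TPM) exceeded SREBF1 (13.6 ± 7.46) in the controls.

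**Figure D1:**
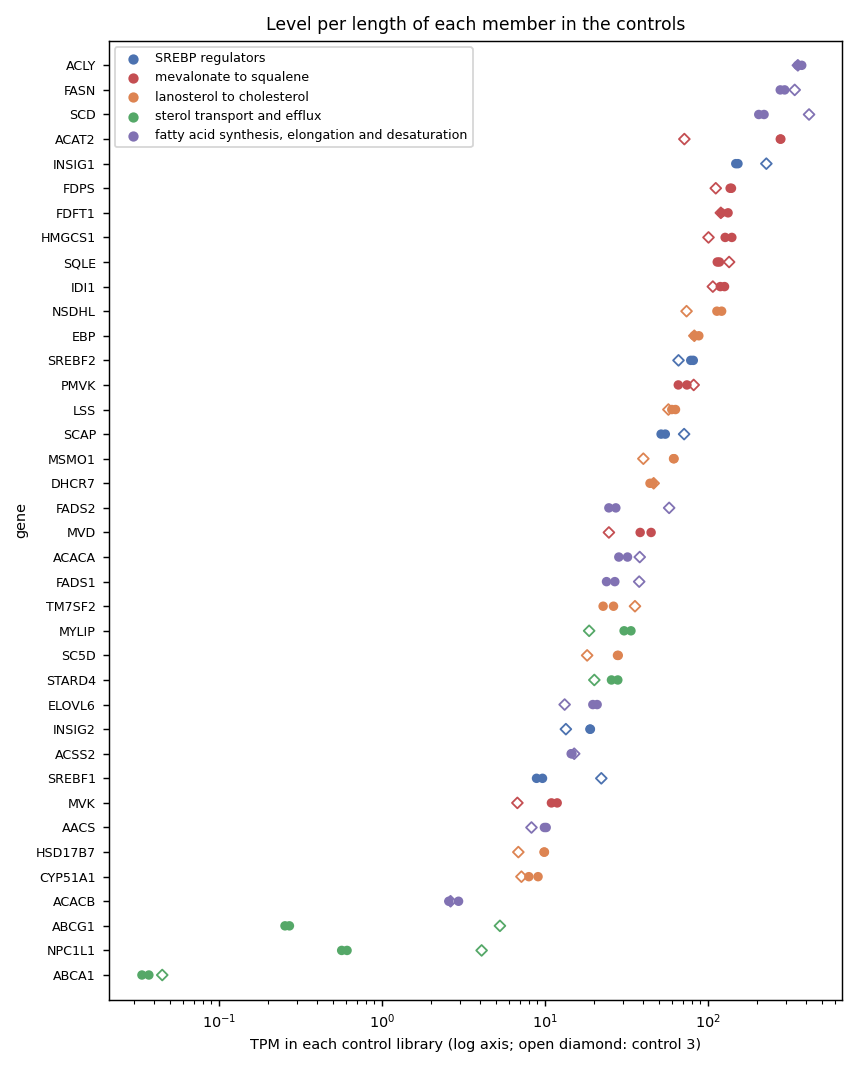
Level of each of the 38 members in the 3 control libraries, in TPM on a log axis, ordered by the mean and coloured by role, with control 3 as an open diamond. ACLY stands highest at a mean of 363 TPM and ABCA1 lowest at 0.0386, and control 3 lies away from the other controls most at ABCG1 and NPC1L1.

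In the FAM60A knockout, 9 of the 38 genes passed the test (edgeR's quasi-likelihood test, Benjamini-Hochberg adjusted p of at most 0.05 over all genes), 5 higher and 4 lower. This is 23.7%, beside 16.6% of all genes tested (7.96% higher and 8.67% lower). The members that rose were the sterol enzymes SQLE, IDI1, DHCR7, SC5D and CYP51A1, and those that fell were the sterol enzyme NSDHL and the fatty acid genes ACSS2, ACACB and ACLY. The median log2 fold change was 0.17 over the 38 members and -0.01 over all genes. With a log2 fold change of 1 or more in size required besides, SQLE and NSDHL passed, 2 of 38, beside 7.06% of all genes. By CPM, the knockout libraries lay above all controls for 17 members and below all for 7, so 24 of 38 did not overlap (63.2%, beside 41.6% of all genes, 21.5% above and 20.1% below). A two-sided exact permutation test gives these p = 0.1, which is as low as 3 libraries against 3 can go.

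Without control 3, 31 of the 38 members passed (19 higher and 12 lower; 81.6%, beside 65.6% of all genes in that fit), and all 9 were among them. A log2 fold change of 1 or more in size was then reached by 8 members that passed, beside 22.9% of all genes. The other 22 passed only without that library, 10 of them with a log2 fold change of 0.5 or more in size: SREBF1, ACAT2, MVD, NPC1L1, ABCG1, MYLIP, FASN, SCD, FADS1 and FADS2. This gain was not particular to the members, as 14221 of 21686 genes passed without control 3 and 3491 of 20992 with it. Of the 9 genes, SQLE passed in each of the 6 fits that left out 1 library. Without knockout 1 or knockout 3 it alone passed, and without knockout 2 IDI1 and DHCR7 passed besides. Without control 1 or control 2 the members that passed were SQLE, IDI1, DHCR7 and ACSS2. Far fewer of all genes passed in these fits as well. They numbered 167, 503 and 189 without knockout 1, 2 and 3, and 1049 and 796 without control 1 and control 2, against 3491 over all 6 libraries.

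**Figure D2:**
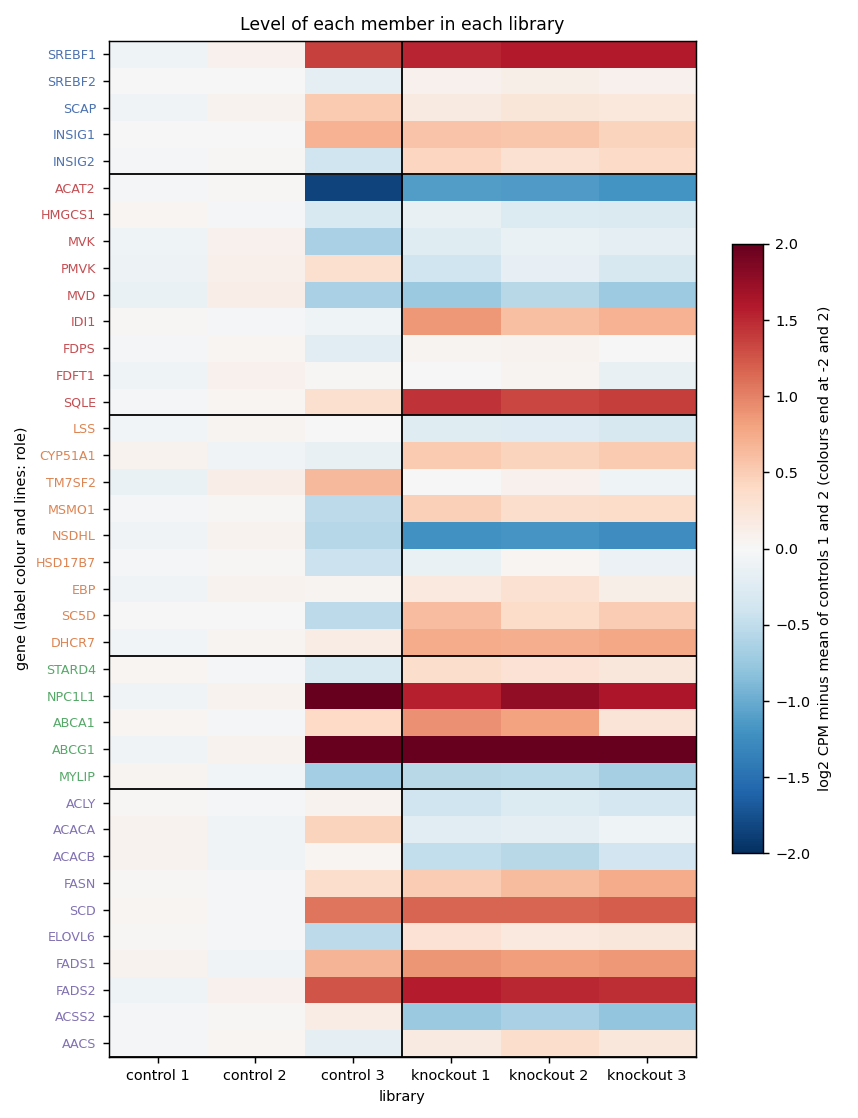
Log2 CPM of the 38 members in each of the 6 libraries, minus the mean of controls 1 and 2, with genes in rows grouped by role and colours that end at -2 and 2. The 3 knockout columns resemble each other, and the control 3 column departs from controls 1 and 2 by at least 0.5 for 17 of the 38 genes.

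The SREBP regulators gave no call: 0 of 5 passed, beside 16.6% of all genes, with a median log2 fold change of 0.25. Without control 3, 4 of 5 passed, all higher, with a median of 0.34, beside 65.6% of all genes. SREBF1, which encodes SREBP-1, had 23.2, 26.0 and 63.1 CPM in controls 1, 2 and 3 and 70.3, 73.8 and 73.4 CPM in the knockout libraries. Control 3 was thus close to the knockout libraries and far from the other controls, although no knockout library overlapped a control. Over all 6 libraries its log2 fold change was 0.95 ± 0.38 (edgeR adjusted p = 0.135), and without control 3 it was 1.53 ± 0.08, which passed. RAI1, with a mean of 5650 counts, overlaps 6.75% of the exon bases of SREBF1 on the opposite strand. SREBF2, which encodes SREBP-2, had 208, 206 and 184 CPM in the controls and 219.6, 225 and 219.7 CPM in the knockout, a log2 fold change of 0.15 ± 0.09 that passed neither with control 3 nor without it (0.07 ± 0.08).

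SCAP, the escort protein, had 103, 112 and 155 CPM in the controls and 122, 127 and 125 CPM in the knockout, with control 3 above every other library and a log2 fold change of 0.01 ± 0.16, or of 0.18 ± 0.08 without control 3, which passed. INSIG1, the retention factor whose gene is itself an SREBP target, had 177, 177 and 288 CPM in the controls and 262, 259 and 241 CPM in the knockout. Here too control 3 was the highest library, and the log2 fold change was 0.25 ± 0.21 with it and 0.49 ± 0.08 without it, which passed. INSIG2, the second retention factor, had 23.7, 24.5 and 18.3 CPM in the controls and 32.3, 29.7 and 31.5 CPM in the knockout, with no overlap. Its log2 fold change of 0.49 ± 0.14 had an edgeR adjusted p of 0.0558, just outside the threshold. Without control 3 it was 0.34 ± 0.08 and passed.

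Among the 9 genes from acetyl-CoA units to squalene epoxide, 2 rose, 0 fell and 7 did not pass. The share that passed was 22.2%, beside 16.6% of all genes, and the median log2 fold change was -0.04. Without control 3, 2 passed higher and 5 lower, beside 65.6% of all genes, and the median was -0.22. SQLE, squalene epoxidase and a rate-limiting step after squalene, had 156, 165 and 201 CPM in controls 1, 2 and 3 and 436, 406 and 420.0 CPM in the knockout libraries. Every knockout library was above every control, and control 3 was the highest control. The means were 174 ± 23.6 and 420.5 ± 14.9 CPM (SD, n = 3), 2.42-fold, with a log2 fold change of 1.27 ± 0.12 (edgeR adjusted p = 0.00404) and of 1.36 ± 0.08 without control 3. IDI1, an isomerase of isoprenoid units, had 172, 167 and 159 CPM in the controls and 308, 256 and 276 CPM in the knockout. The controls lay close together, control 3 included, and all were below the knockout. Its log2 fold change was 0.75 ± 0.10 (edgeR adjusted p = 0.00937), 1.69-fold, and 0.69 ± 0.09 without control 3. The annotation places IDI2-AS1 on the opposite strand across 643 of its exon bases, and whether the counting used strand is not given in the sources used here.

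ACAT2, the thiolase that joins acetyl-CoA units at the start of the route, had 233, 241 and 65.4 CPM in controls 1, 2 and 3 and 109.6, 109 and 103 CPM in the knockout. Control 3 was the lowest of all 6 libraries, below the knockout as well, so the groups overlapped. The log2 fold change was -0.75 ± 0.45 (edgeR adjusted p = 0.289) with control 3 and -1.18 ± 0.07 without it, which passed. TCP1, a far more abundant chaperonin gene, overlaps 17.2% of its exon bases on the opposite strand. MVD, which decarboxylates the last mevalonate intermediate, had 57.4, 69.1 and 40.2 CPM in the controls and 37.8, 42.8 and 38.2 CPM in the knockout. Control 3 lay inside the knockout range, and the log2 fold change was -0.49 ± 0.20 (edgeR adjusted p = 0.139) with it and -0.71 ± 0.09, past the threshold, without it.

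The other 5 genes of this stretch, HMGCS1, MVK, PMVK, FDPS and FDFT1, had log2 fold changes between -0.41 (PMVK) and 0.11 (FDPS) and did not pass. Of these, HMGCS1, MVK and PMVK passed without control 3, each at a lower level in the knockout (-0.27, -0.22 and -0.33). FDPS and FDFT1, which make farnesyl diphosphate and squalene, passed in neither fit. FDFT1, which acts just before SQLE, and LSS, which acts just after it, were thus not among the genes that rose.

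Of the 9 genes from squalene epoxide to cholesterol, 3 rose, 1 fell and 5 did not pass. The share that passed was 44.4%, beside 16.6% of all genes, and the median log2 fold change was 0.19. Without control 3, 4 passed higher and 2 lower (66.7%, near the 65.6% of all genes in that fit), and the median was 0.18. DHCR7, the reductase of the last step to cholesterol, had 96.3, 103 and 110.4 CPM in controls 1, 2 and 3 and 167, 164 and 171 CPM in the knockout. The 2 groups did not overlap and each was tight, with means of 103 ± 7.07 and 167 ± 3.17 CPM (SD, n = 3). The log2 fold change was 0.70 ± 0.09 (edgeR adjusted p = 0.00815) and 0.72 ± 0.08 without control 3. SC5D, the desaturase that acts just before it, had 89.8, 91.5 and 63.1 CPM in the controls and 139, 117 and 129 CPM in the knockout. Control 3 was the lowest library, on the far side of the other controls from the knockout. The log2 fold change was 0.65 ± 0.16 (edgeR adjusted p = 0.043) with it and 0.47 ± 0.08 without it.

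CYP51A1, the lanosterol demethylase, had 1167, 1043 and 999 counts across the controls and 1381, 1362 and 1451 counts in the knockout, with means of 11.1 ± 0.851 and 16.1 ± 0.514 CPM (SD, n = 3), again without overlap. Its log2 fold change was 0.54 ± 0.12 (edgeR adjusted p = 0.032) and 0.46 ± 0.09 without control 3. This gene is uncertain, because 2 other annotated genes share about 68% of its exon bases on the same strand and hold almost no counts, and the pseudogene CYP51A1P2 had 737, 696 and 560 counts over controls 1, 2 and 3 and 754, 766 and 789 over the knockout libraries. Reads that fit more than 1 of these could have been dropped or assigned elsewhere.

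NSDHL, which removes the methyl groups at carbon 4 together with MSMO1, went the other way, with 71.9, 79.1 and 51.0 CPM in the controls and 32.6, 33.4 and 32.0 CPM in the knockout. The knockout libraries were nearly equal, all were below every control, and control 3 was the lowest control. The mean was 2.06-fold lower in the knockout, a log2 fold change of -1.04 ± 0.17 (edgeR adjusted p = 0.0143), and -1.24 ± 0.08 without control 3. MSMO1, its partner in that step, had a log2 fold change of opposite sign, 0.55 ± 0.16, with an edgeR adjusted p of 0.0591, just outside the threshold. LSS, TM7SF2, HSD17B7 and EBP had log2 fold changes from -0.27 to 0.19 and did not pass. LSS and MSMO1 passed without control 3 (-0.30 and 0.37), and the other 3 did not. In this stretch control 3 was nearer to the knockout than to controls 1 and 2 for 1 gene of 9 (11.1%, beside 58.9% of all genes).

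**Figure D3:**
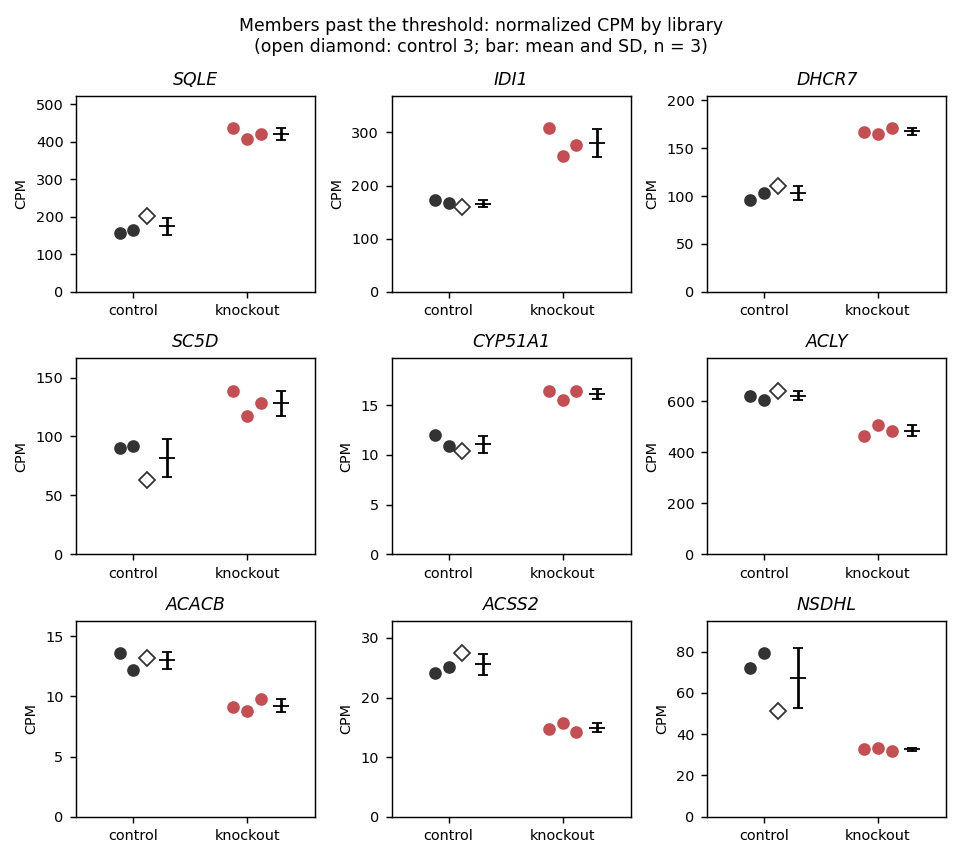
Normalized CPM of the 9 members that passed the test, 1 panel a gene with its own axis from 0, controls in black (control 3 as an open diamond), knockout in red, and the mean with its SD (n = 3) as a bar beside the points. SQLE, IDI1, DHCR7, SC5D and CYP51A1 lie higher in all knockout libraries than in any control, and ACLY, ACACB, ACSS2 and NSDHL lie lower.

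The 10 fatty acid genes differed in direction among themselves: 0 rose, 3 fell and 7 did not pass. The share that passed was 30%, beside 16.6% of all genes, and the median log2 fold change was 0.35. The knockout libraries lay outside the control range for all 10, above it for 6 and below it for 4 (beside 41.6% of all genes, 21.5% above and 20.1% below). Without control 3 all 10 passed, 6 higher and 4 lower, beside 65.6% of all genes, and the median was 0.22. ACSS2, which makes acetyl-CoA from acetate, had 24.1, 25.1 and 27.4 CPM in controls 1, 2 and 3 and 14.7, 15.7 and 14.3 CPM in the knockout. Control 3 was the highest library, the groups did not overlap, and the mean was 1.72-fold lower in the knockout. The log2 fold change was -0.78 ± 0.11 (edgeR adjusted p = 0.0101) and -0.76 ± 0.08 without control 3. ACLY, the citrate lyase, had 621, 605 and 641 CPM in the controls and 463, 508 and 482 CPM in the knockout, a log2 fold change of -0.36 ± 0.09 (edgeR adjusted p = 0.0394). Its difference was the smallest of the 9, 1.28-fold, control 3 lay with the other controls, and the log2 fold change without it was -0.37 ± 0.08. ACACB, the mitochondrial acetyl-CoA carboxylase whose product limits fatty acid oxidation, had 13.6, 12.2 and 13.2 CPM in the controls and 9.11, 8.76 and 9.82 CPM in the knockout. The groups were again separate, with a log2 fold change of -0.49 ± 0.13 (edgeR adjusted p = 0.0464) and -0.51 ± 0.09 without control 3. ACACA, the cytosolic carboxylase that makes malonyl-CoA for synthesis, had a log2 fold change of -0.32 ± 0.15 and did not pass. Without control 3 it was -0.19, which passed.

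The synthase and the desaturases were higher in the knockout than in controls 1 and 2, with control 3 in between. FASN had 874, 846 and 1097 CPM in controls 1, 2 and 3 and 1218, 1332 and 1435 CPM in the knockout. Control 3 was the highest control and below every knockout library, and the log2 fold change of 0.50 ± 0.14 had an edgeR adjusted p of 0.0538, just outside the threshold. It was 0.60 ± 0.09, past the threshold, without control 3. SCD had 368, 351 and 756 CPM in the controls and 806, 807 and 833 CPM in the knockout. Control 3 lay close to the knockout, and the log2 fold change was 0.73 ± 0.30 (edgeR adjusted p = 0.146) with it and 1.15 ± 0.08, past the threshold, without it.

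FADS1 and FADS2, neighbouring genes for the desaturases of polyunsaturated fatty acids, showed the same order of libraries. FADS2 had 82.6, 93.9 and 211 CPM in the controls and 262, 252 and 245 CPM in the knockout, a log2 fold change of 0.97 ± 0.36 (edgeR adjusted p = 0.11). FADS1 had 87.1, 79.8 and 134 CPM in the controls and 154, 149 and 151 CPM in the knockout, a log2 fold change of 0.60 ± 0.20 (edgeR adjusted p = 0.0898). In both, control 3 lay above controls 1 and 2 and below the knockout. Both passed without control 3, at 1.49 ± 0.08 and 0.83 ± 0.08. The annotation has the 2 genes share 490 exon bases on opposite strands. ELOVL6, which lengthens palmitate, and AACS, which activates acetoacetate, had log2 fold changes of 0.39 and 0.31 and passed only without control 3, where the values were 0.21 and 0.23.

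Of the 5 genes of sterol transport and efflux, 0 passed, beside 16.6% of all genes, and their median log2 fold change was 0.38. Without control 3, 3 passed higher and 1 lower (80%, beside 65.6% of all genes), and the median was 0.72. Control 3 was nearer to the knockout than to the other controls for 4 of the 5 (80%, beside 58.9% of all genes). ABCG1, an LXR-driven sterol exporter, had 48, 52 and 1082 counts in controls 1, 2 and 3 and 621, 680 and 663 counts in the knockout, that is 0.494, 0.541 and 11.2 and 7.37, 7.75 and 7.51 CPM. Control 3 had the highest level of all, and controls 1 and 2 were an order of magnitude below every other library. The log2 fold change was 0.89 ± 1.16 (edgeR adjusted p = 0.625) over all libraries and 3.83 ± 0.14 without control 3, which passed. NPC1L1, a sterol uptake protein, had 92, 101 and 719 counts across the controls and 250, 303 and 273 counts in the knockout, or 0.946, 1.05 and 7.44 and 2.97, 3.45 and 3.09 CPM. Control 3 was again the highest, and the log2 fold change went from 0.01 ± 0.80 with it to 1.63 ± 0.15, past the threshold, without it.

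MYLIP, an LXR-driven ubiquitin ligase that lowers uptake of lipoproteins, had 32.8, 30.7 and 19.8 CPM in the controls and 21.5, 21.8 and 20.0 CPM in the knockout. Control 3 was the lowest library, and the log2 fold change was -0.40 ± 0.20 (edgeR adjusted p = 0.209) with it and -0.62 ± 0.08, past the threshold, without it. Without control 3 the LXR targets ABCG1 and MYLIP therefore passed in opposite directions. ABCA1, the exporter of cholesterol to apolipoproteins, had 13, 12 and 17 counts across the controls and 22, 21 and 14 counts in the knockout, and its log2 fold change of 0.59 ± 0.31 passed in neither fit. STARD4, a cytosolic sterol carrier, had a log2 fold change of 0.38 ± 0.12 (edgeR adjusted p = 0.0704) and passed without control 3 (0.26).

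**Figure D4:**
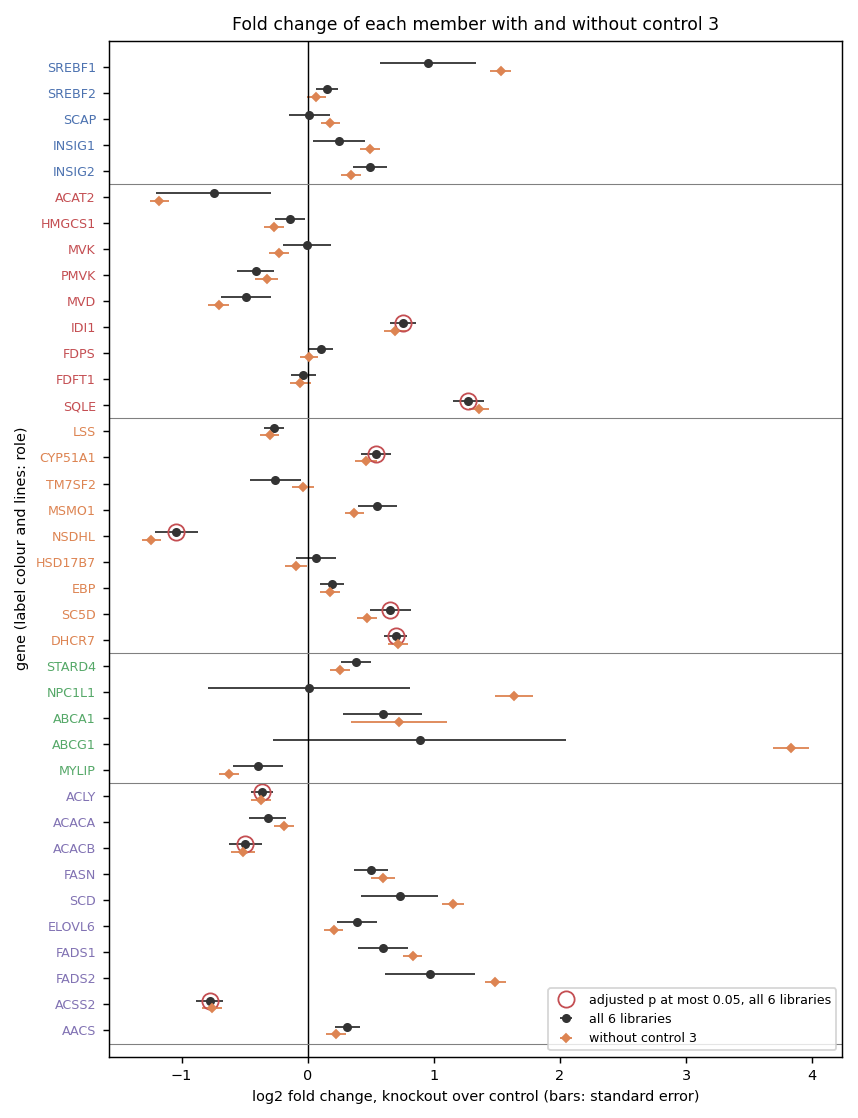
Log2 fold change of each member, knockout over control, with its standard error, over all 6 libraries (black) and without control 3 (orange), genes grouped by role. Red rings mark the 9 genes that passed over all 6 libraries, and the values move apart most at ABCG1 (0.89 and 3.83) and NPC1L1 (0.01 and 1.63).

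Control 3 itself was described and not tested. The knockout mean lay at least 0.5 in log2 CPM from the mean of controls 1 and 2 for 17 members. For 12 of the 17 (70.6%) control 3 had gone more than 50% of that way, beside 64.6% of 10164 genes over the whole table that met the same condition. For ACSS2 and IDI1 it lay on the other side of controls 1 and 2. Over all 38 members, control 3 was nearer to the knockout mean for 16 (42.1%, beside 58.9% of all genes), and 17 (44.7%, beside 49.3%) had it at least 0.5 away from controls 1 and 2. It was nearer to the knockout for 5 of the 18 sterol enzymes and for 4 of the 10 fatty acid genes (FASN, SCD, FADS1 and FADS2), and the difference between these shares was not tested.

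**Figure D5:**
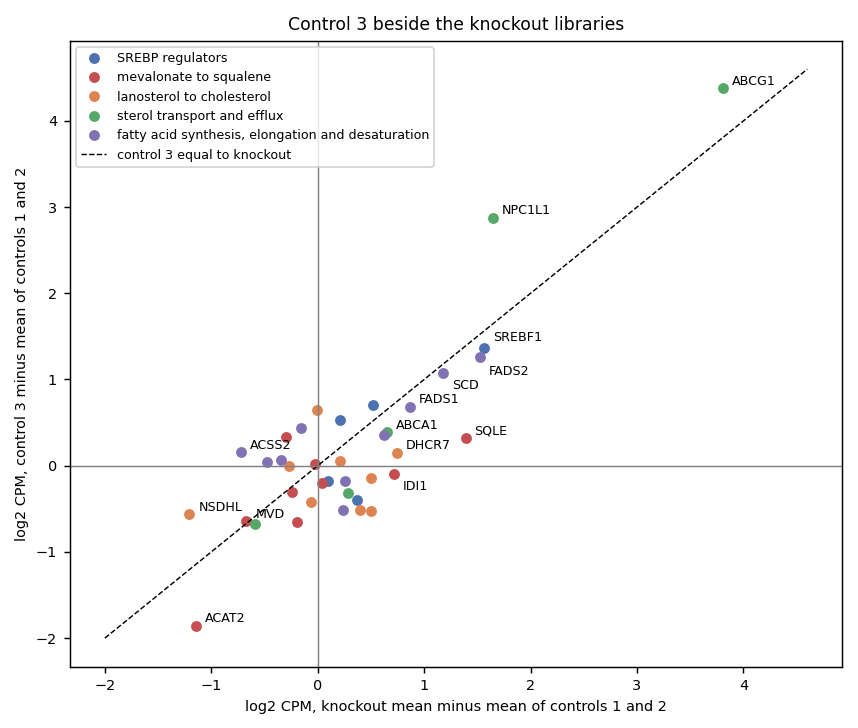
Difference in log2 CPM from the mean of controls 1 and 2, for the knockout mean on the horizontal axis and for control 3 on the vertical axis, 1 point a member coloured by role, with a dashed line where control 3 equals the knockout. ABCG1, NPC1L1, SREBF1, SCD, FADS2 and ACAT2 lie near or beyond the line, while SQLE, IDI1, DHCR7 and ACSS2 lie near 0 on the vertical axis.

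Other genes of the same pathways were taken as whole lists. Of 19 genes that process or degrade SREBPs and their partners, 5 rose and 2 fell (36.8%, beside 16.6% of all genes tested), with a median log2 fold change of 0.00. Without control 3, 15 of the 19 passed (78.9%, beside 65.6% of all genes in that fit), with a median of 0.03. RNF139, a ubiquitin ligase of the endoplasmic reticulum, had 36.5, 38.4 and 36.8 CPM in the controls and 88.5, 76.9 and 82.8 CPM in the knockout (log2 fold change 1.15 ± 0.09, 1.11 without control 3, edgeR adjusted p = 0.00277), and control 3 lay with the other controls. SAR1B, a GTPase of the vesicles that carry cargo to the Golgi, rose by 0.93 ± 0.14 on the log2 scale (0.77 without control 3, edgeR adjusted p = 0.0124). MBTPS1, the site-1 protease that makes the first cut in SREBPs, fell, with 212, 214 and 176 CPM in the controls and 128, 128 and 136 CPM in the knockout (log2 fold change -0.62 ± 0.11, -0.74 without control 3, edgeR adjusted p = 0.0163). UBE2G2, a ubiquitin-conjugating enzyme of the same degradation route, also fell (-0.62 ± 0.09, -0.70 without control 3, edgeR adjusted p = 0.0097). MBTPS2, which makes the second cut, rose (0.47 ± 0.09, 0.47 without control 3, edgeR adjusted p = 0.0221), so the 2 proteases moved in opposite directions; it was named after its value was seen.

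Of 17 tested genes of the isoprenoid branches and partners of the sterol enzymes, 3 rose and 2 fell (29.4%), with a median of 0.23. Without control 3, 10 passed (58.8%, beside 65.6% of all genes) and the median was 0.03. GGPS1, which makes geranylgeranyl diphosphate from the same precursor pool, fell (-0.78 ± 0.11, -0.84 without control 3, edgeR adjusted p = 0.00993), as did CYB5B, a cytochrome b5 (-0.72 ± 0.16, -0.85 without control 3, edgeR adjusted p = 0.0319). COQ2, of ubiquinone synthesis, rose (0.73 ± 0.14, 0.85 without control 3, edgeR adjusted p = 0.023).

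Of 24 tested genes of sterol uptake, storage, transport and LXR signalling, 6 rose and 2 fell (33.3%), with a median of 0.31. Without control 3, 24 of 25 passed (96.0%, beside 65.6% of all genes) and the median was 0.20. CYP7B1, the oxysterol hydroxylase, showed the largest difference of any gene on these lists, with 687, 594 and 89 counts in controls 1, 2 and 3 and 8, 3 and 5 counts in the knockout. Control 3 again lay between the other controls and the knockout, and the log2 fold change was -6.23 ± 0.93 (-6.75 without control 3, edgeR adjusted p = 0.0115). LIPA, the lysosomal acid lipase that frees cholesterol from lipoproteins, had 73.0, 73.6 and 94.2 CPM in the controls and 189, 171 and 185 CPM in the knockout (1.18 ± 0.13, 1.28 without control 3, edgeR adjusted p = 0.00582). GRAMD1C, a sterol transfer protein, rose (1.50 ± 0.36, 1.99 without control 3, edgeR adjusted p = 0.039).

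Among 36 tested partners of fatty acid and glycerolipid synthesis, 5 rose and 3 fell (22.2%), with a median of 0.10. Without control 3, 25 passed (69.4%, beside 65.6% of all genes) and the median stayed at 0.10. SLC25A1, the citrate carrier that feeds ACLY, rose (0.79 ± 0.20, 0.97 without control 3, edgeR adjusted p = 0.0446) while ACLY fell. ELOVL7, a fatty acid elongase, and DGAT1, which completes triglycerides, rose (0.83 ± 0.14 and 0.68 ± 0.13, 0.94 and 0.78 without control 3, edgeR adjusted p = 0.0147 and 0.0211), and TECR, the reductase of the elongation cycle, fell (-0.68 ± 0.15, -0.80 without control 3, edgeR adjusted p = 0.0309). Of 11 tested factors that act beside SREBPs, 1 passed (9.09%, below the 16.6% of all genes), with a median of 0.07 over the list. It was NFYB, a subunit of NF-Y, which rose (0.51 ± 0.12, 0.57 without control 3, edgeR adjusted p = 0.0331). Without control 3, 6 of the 11 passed (54.5%, beside 65.6% of all genes), with a median of 0.02.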

How the data were processed

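Poly(A) RNA libraries (strand-specific, paired-end) were made by the authors from 3 control and 3 FAM60A knockout samples. The deposited values are whole-number read counts per Ensembl gene, 1 column a library. The labels' processing notes list STAR 2.7.10b, featureCounts 2.0.0 and hg38, the study's methods name Salmon on hg38, and the extraction protocol names hg19. These differ, and the annotation and strand setting are not given in the sources used here, so ambiguous reads of overlapping genes may have been dropped or shared.

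Counts were taken as deposited. In edgeR 4.0.16 (R 4.3.3) genes were kept by filterByExpr (minimum count 10), scaled by TMM and tested two-sided with the quasi-likelihood F test, without covariates, and p-values were adjusted by Benjamini-Hochberg over 20992 genes. A gene passed at an adjusted p of at most 0.05, and standard errors were derived from the fold change and F. On counts simulated for this comparison over the real genes, 200 of 200 changed genes (absolute log2 fold change 3) were recovered, with 9 false calls. The simulation used a common dispersion and no outlying library, so it checks the procedure and not the power for smaller differences. Chi-square tests of counts between replicates gave at least 14.9 per degree of freedom, so no library was a repeat. TPM used exon lengths of the GENCODE annotation, which also gave overlaps between genes.

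The members and gene lists were chosen with earlier results of these data known. Values of each library are given for the SREBP regulators, for members that passed, and for members that passed without control 3 with a log2 fold change of 0.5 or more in size. On the other lists up to 4 genes that passed, with the largest fold change, are named. Some of these are not reported here. Alternatives were DESeq2 1.42.0, limma 3.58.1 (voom, quantile normalization), no TMM, other filters, a replicate block, leaving out each library, a fold threshold and the longest transcript as length. PECAM1 had no match and was not analysed here.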

Additional observations from a re-analysis of the deposited data

How the results depend on the processing

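Of all genes, 3491 passed the test, and 5581 passed with DESeq2, 407 with the replicate number as a block, 1482 with a log2 fold change of 1 or more in size and 167 to 14221 when 1 library was left out. Of the 38 members, 9 passed, and 16 did with DESeq2, 5 with no filter on low counts, 1 (SQLE) with the replicate block, 2 with the fold threshold and 1 to 31 with 1 library left out; control 3 gave the upper and knockout 1 and knockout 3 the lower end. Same-numbered libraries did not deviate together (r = 0.010, 0.031 and -0.036). Control 3 dominates the deviations among the controls, so these values cannot tell whether same-numbered libraries shared a day or culture. All 9 were among the genes that passed with DESeq2 and without control 3, and 8 of them with limma-voom. Library size without TMM moved the median log2 fold change of all genes to -0.12 and the split to 1235 higher of 3903 genes, from 1671 of 3491, and 3 members were then higher and 5 lower. Median TPM of the members was 37.7 and 51.6 with the longest transcript as length. Signs turned only for genes that did not pass over all 6 libraries. SCAP became -0.0079 with DESeq2, -0.097 without TMM, and ran from -0.13 to 0.18 with 1 library left out (below 0 without control 1 or control 2). MVK became 0.027 with limma-voom, 8.84e-05 with at least 10 counts in every library, 0.024 with the replicate block, and ran from -0.22 (without control 3) to 0.14 with 1 library left out, above 0 without control 1, control 2, knockout 1 or knockout 3. FDPS became -0.0032 without TMM. FDFT1 ran from -0.11 to 0.030 with 1 library left out, above 0 without control 2 or knockout 3. HSD17B7 became -0.044 without TMM and -0.093 without control 3. NPC1L1 became -0.095 without TMM, and ran from -0.44 to 1.63 with 1 library left out, below 0 without control 1, control 2 or knockout 2. The cause was not tested. Depth limits ABCA1 most, at 12 to 22 counts a library.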

Other observations

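Several genes of the other lists, chosen after their values were seen, had control 3 far from controls 1 and 2 and gave no call over all 6 libraries. MLXIPL, the carbohydrate-sensing activator of lipid synthesis genes, had 2.69, 3.03 and 14.0 CPM in controls 1, 2 and 3 and 12.1, 13.0 and 12.9 CPM in the knockout, so control 3 lay with the knockout. MID1IP1, which promotes the active polymer of acetyl-CoA carboxylase, had 13.9, 14.3 and 100.2 CPM in the controls and 40.2, 41.2 and 38.0 CPM in the knockout, with control 3 above every other library. NFYA, the DNA-contacting subunit of NF-Y, had 108, 97.8 and 34.9 CPM in the controls and 41.4, 41.6 and 39.8 CPM in the knockout, with control 3 the lowest library, while NFYC had 54.2, 52.1 and 51.5 and 47.8, 54.3 and 46.8 CPM. Their log2 fold changes were 0.95 ± 0.64, -0.10 ± 0.77 and -0.97 ± 0.39 for MLXIPL, MID1IP1 and NFYA over all libraries, and 2.11, 1.46 and -1.36 without control 3. The LXR receptor genes NR1H3 and NR1H2 had log2 fold changes of opposite sign, 0.44 ± 0.27 and -0.43 ± 0.21, neither past the threshold, and 0.77 and -0.67 without control 3.

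CH25H, which makes an oxysterol that activates LXR, had 6, 6 and 60 counts across the controls and 32, 53 and 54 counts in the knockout, and VLDLR, a lipoprotein receptor, had 24.6, 22.8 and 25.2 CPM in the controls and 46.5, 43.9 and 45.6 CPM in the knockout. VLDLR rose with control 3 among the other controls (log2 fold change 0.91 ± 0.09, edgeR adjusted p = 0.00482).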
